A study of Homo sapiens with 6 samples.

Results

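Genes of 10 surface antigens of leukaemic blasts were followed in the acute myeloid leukaemia (AML) line MV4-11: *CD34*, *KIT*, *CD38*, *IL3RA*, *CD33*, *CLEC12A*, *CD14*, *ITGAM*, *CD44* and *CD47*. They were chosen by name, as progenitor antigens, monocytic antigens and targets of antibody or cellular therapy, and all 10 were found among the 61806 genes of the count table. MV4-11 is an established line from a biphenotypic B-myelomonocytic leukaemia that carries an internal tandem duplication of *FLT3*. The 6 libraries compared were 3 from cells with a control short hairpin RNA (shNC) and 3 labelled shATGL, for a hairpin against *PNPLA2*, the gene of adipose triglyceride lipase (ATGL), which releases fatty acids from stored triglyceride. The study describes lentiviral delivery of its hairpins and names puromycin for the selection of stably transduced cells, in a passage on overexpression vectors that does not say how the shNC and shATGL lines were selected. The labels do not say which hairpin sequence a library carried, nor whether the replicates were separate cultures, so the p-values measure only the spread between these samples. No drug treatment or time point is named for these libraries.

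Blast antigens are the proteins by which AML is typed and, in some cases, treated. CD34 and KIT mark early progenitors, CD14 and ITGAM mark cells along the monocytic line, and CD33, IL3RA (CD123) and CLEC12A are carried by most myeloid blasts and are drug targets. CD47 signals to the receptor SIRPA on macrophages to hold back phagocytosis, and CD44 binds hyaluronan in the marrow matrix. What was measured here was messenger RNA, so the amount of each protein on the cell surface was not analysed here.

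No tested antigen passed the test for a difference between the libraries labelled shATGL and shNC. *CD34* was too rare to be tested, and the other 9 gave log2 fold changes from -0.74 for *CD14* to 0.10 for *ITGAM*, with 6 above 0, 3 below 0 and a median of 0.01, equal to the median of 0.01 over all genes tested. The smallest Benjamini-Hochberg adjusted p of edgeR's quasi-likelihood test among the 9 was 0.528. With a gene called at an adjusted p under 0.05 and a change of at least 2-fold, 0 of 9 were called, against 0.00522% of the 19149 genes tested, which is 1 gene. In this fit no antigen had an unadjusted p under 0.05, against 11.7% of all genes. For 8 of the 9 the 95% interval of the change lay within 2-fold in either direction, against 68% of all genes, so a 2-fold change lay outside the interval for every tested antigen other than *CD14*. The p-values do not show that the levels were equal.

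The count table held between 59674064 and 74808280 counts a library, and between 24360 and 25959 genes with a count. *PNPLA2* itself was read at 101, 97.0 and 107 CPM (the count of a gene scaled to the size of its library) in shNC 1, 2 and 3, against 102, 98.1 and 104 CPM in shATGL 1, 2 and 3, a log2 fold change of -0.01 ± 0.06 (SE; adjusted p = 0.979, edgeR's quasi-likelihood test). The targeted messenger RNA was therefore no lower under the shATGL label, and the groups are named by their labels throughout. The library shATGL 3 stood apart from shATGL 1 and 2, with chi-square values of 85.7 and 89.7 per degree of freedom, against 12.3 between those. To a lesser degree shNC 3 stood apart from shNC 1 and 2, with 21.5 and 26.4 against 11.3 between those. The deviations of shNC 3 and shATGL 3 from their group means correlated over genes with r of 0.343. All 12 myelomonocytic identity genes listed were read at 1 CPM or more. Their summed level was 3550 to 3780 CPM in shNC and 3480 to 3510 CPM in shATGL. Of 6 B cell markers, 4 averaged 1 CPM or more and *MS4A1* was at 0, with sums of 11.2 to 12.6 CPM in shNC and 12.2 to 13.6 CPM in shATGL. Of 9 T and NK cell markers, 6 were at 0 and the sums were 0.218 to 0.353 CPM in shNC and 0.399 to 0.688 CPM in shATGL. Erythroid and megakaryocytic markers, 4 of 9 at 0, summed to 15.8 to 16.7 CPM in shNC and 13.3 to 15.1 CPM in shATGL, mostly from *EPOR*. Of 8 stromal and epithelial markers, 6 were at 0, with sums of 0.511 to 0.635 CPM in shNC and 0.499 to 0.729 CPM in shATGL. In bulk RNA, fewer cells that carry an antigen and less RNA per cell cannot be told apart.

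**Figure D1:**
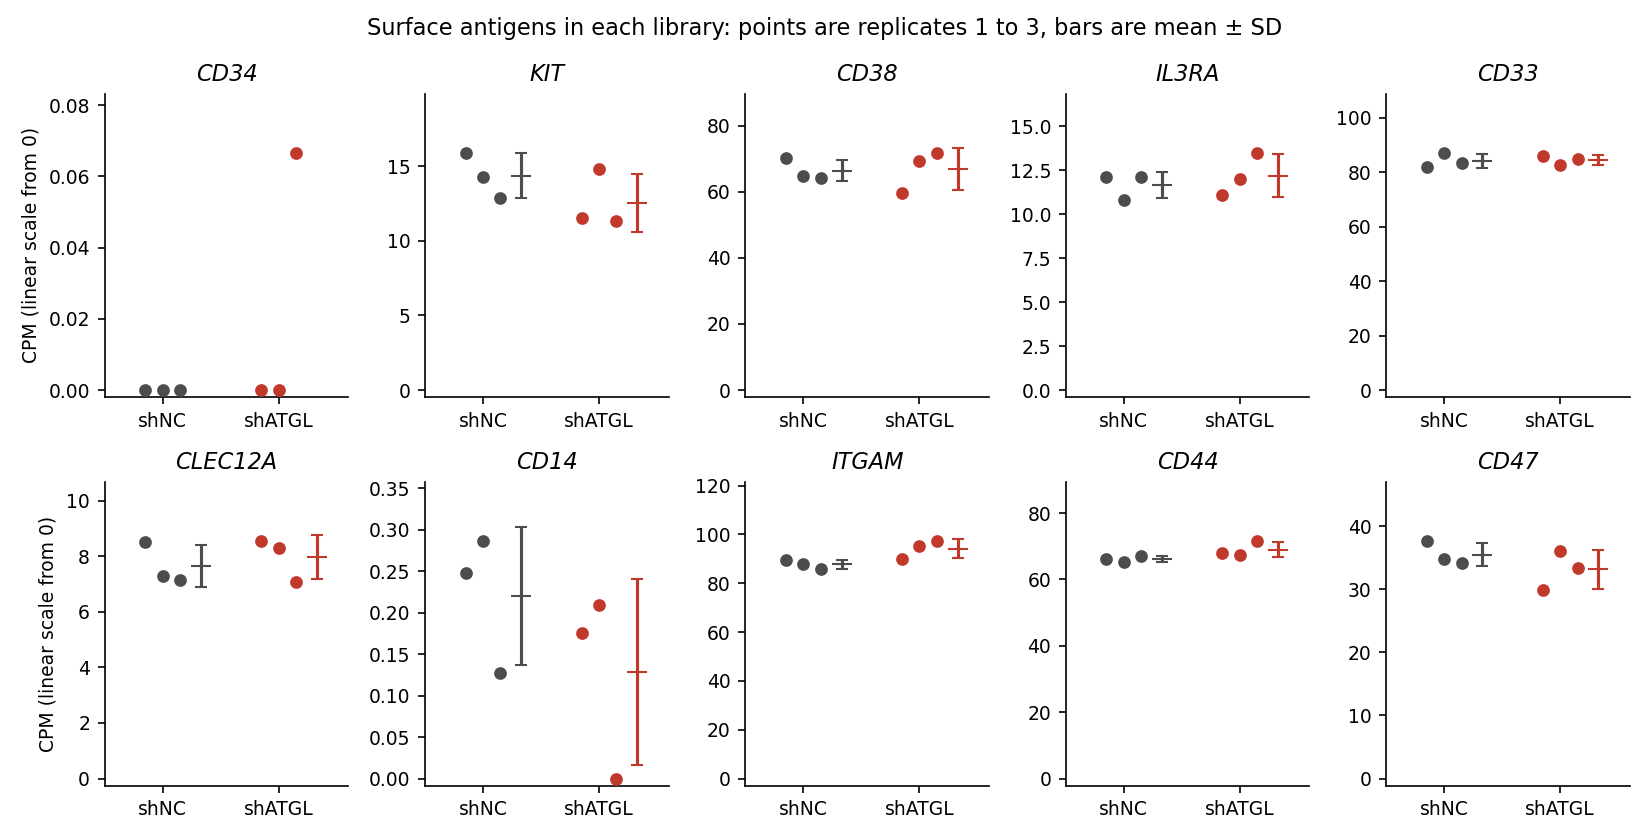
CPM of the 10 antigens (vertical axes, linear, each panel on its own scale from 0) in each of the 3 shNC libraries (grey) and 3 shATGL libraries (red), ordered by replicate number within a group, with the mean ± SD beside the points except for *CD34*. The groups overlap in every panel but those of *ITGAM* and *CD44*, where all shATGL points lie above all shNC points by small margins.

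Levels were compared between genes only after division by transcript length, as CPM per kilobase of the principal transcript (the APPRIS principal isoform in GENCODE 29). Over the 6 libraries *CD33* was highest at 58.4 CPM per kilobase, with a range of 56.8 to 60.4. *CD47* at 26.7 (23.3 to 29.3) and *ITGAM* at 24.9 (23.5 to 26.6) overlapped in range. *CD38* (10.5 to 12.7) and *CD44* (11.4 to 12.5) followed at the same mean of 11.8 CPM per kilobase. Another 3 antigens came next, each apart from its neighbour: *IL3RA* at 6.99 (6.30 to 7.91), *CLEC12A* at 5.04 (4.57 to 5.51) and *KIT* at 2.60 (2.19 to 3.07). *CD14* at 0.0924 CPM per kilobase and *CD34* at 0.00135 closed the order, with ranges that overlapped at 0. Thus 8 antigens were expressed, and *CD34* and *CD14* were nearly absent. The other markers named above for early progenitors and for the monocytic line, *KIT* and *ITGAM*, were among the 8 expressed.

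The order of the upper genes depended on which transcript was taken as the length. The longest annotated transcript of *CD33* has 4728 bases against 1444 in the principal one, and that of *CD47* has 6796 against 1285. With the longest transcripts, *ITGAM* at 19.2 and *CD33* at 17.8 CPM per kilobase overlapped in range at the top, and *CD47* moved to 5.05, beside *CLEC12A* at 4.65. Under both lengths *IL3RA* lay above *CLEC12A*, *CLEC12A* above *KIT*, and *KIT* above *CD14*.

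**Figure D2:**
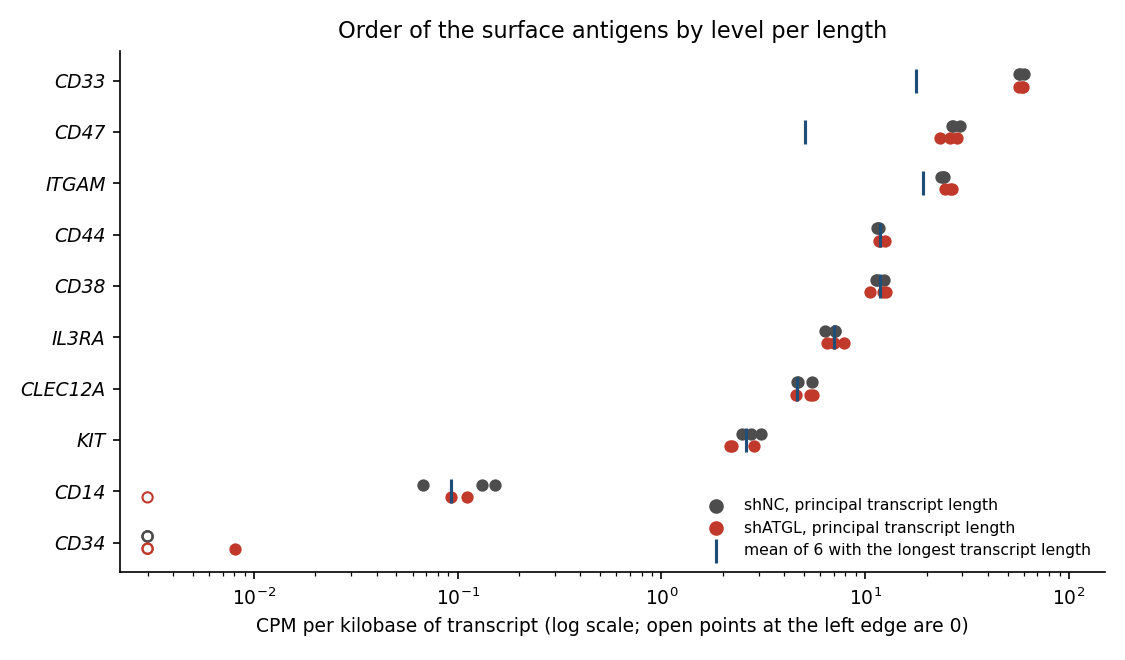
Level of each antigen as CPM per kilobase of transcript (horizontal axis, log scale), for shNC (grey) and shATGL (red) libraries with the principal transcript length, open points at the left edge marking libraries at 0, and a blue bar for the mean of 6 libraries with the longest transcript length. *CD33* lies at 58.4, while the mean of *CD34*, 0.00135, falls to the left of the axis and its blue bar is not shown. The blue bars stand away from the points for *CD33*, *CD47* and *ITGAM*.

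The promoters of the antigens were searched for the core hexamer of PU.1, a transcription factor of the myeloid lineage known to bind many monocyte and granulocyte genes. The letters GAGGAA, or TTCCTC for the opposite strand, were found within 250 bases before the RefSeq start (GRCh38.p14) in 5 of the 10 antigens, against 23.6% of 34961 promoters (chromosomes 8 and Y left out). Only the first listed promoter of each antigen was searched, whereas the 23.6% covers every promoter entry, so the shares are not strictly alike. For *CLEC12A* the start used lies well inside the gene as annotated in GENCODE 29. The windows of *CD14*, *CD34*, *CD44* and *CD47* also lie wholly inside their annotated genes, and the remaining windows reach into them in part. The sites are shown because they occur both in *CD33*, highest per kilobase of the principal transcript, and in the 2 genes close to 0. Each is printed 5′ to 3′ on the strand of its gene, with up to 12 bases on either side and the hexamer in capitals.
CD33, site 1: gtgggtctgaggTTCCTCttccatgcaggg
CD33, site 2: ccctccactcccTTCCTCtttt
ITGAM: caggaagctgggGAGGAAgggtgggcaggc
CLEC12A: aggaagaaatatGAGGAAgaaagatgttat
CD14: ggggctggctcgGAGGAAgagaggtgggga
CD34: gaggggagaagaGAGGAAaaaagcaagaat
The printed stretches lie at chr19:51224978-51225007 and chr19:51225058-51225079 for *CD33*, chr16:31259836-31259865 for *ITGAM* and chr12:9971332-9971361 for *CLEC12A*, all on the plus strand, and at chr5:140633254-140633283 for *CD14* and chr1:207911184-207911213 for *CD34* on the minus strand. In GENCODE 29 the first *CD33* site and the *ITGAM* site lie outside any gene. The *CLEC12A* site lies inside the gene but in no exon, and those of *CD14* and *CD34* and the second of *CD33* overlap an annotated untranslated exon. The windows of *KIT*, *CD38*, *IL3RA*, *CD44* and *CD47* do not hold these letters. A match is a description of the letters, and no binding was measured.

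*CD34* (ENSG00000174059, chr1:207880972-207911402, minus strand) encodes a sialomucin of haematopoietic stem and progenitor cells. It had 0 counts in shNC 1, 2 and 3 and in shATGL 1 and 2, and 4 counts in shATGL 3. A count of 0, taken to allow 3 counts of a library's raw total, allows a level of up to 0.0401 to 0.05 CPM in these 5 libraries. The 4 counts of shATGL 3 amount to between 0.0183 and 0.172 CPM (95% Clopper-Pearson interval, counting error only). The gene was thus at or near the floor in each library, and no fold is given.

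*KIT* (ENSG00000157404, chr4:54657918-54740715, plus strand) encodes the receptor tyrosine kinase for stem cell factor. Its level was 15.9, 14.3 and 12.9 CPM in shNC 1, 2 and 3. In shATGL 1, 2 and 3 it was 11.5, 14.8 and 11.3 CPM. In shATGL 1 and 3 the level lay below all shNC libraries, and shATGL 2 lay within their range, so the groups overlapped. The means were 14.4 ± 1.53 CPM and 12.6 ± 1.94 CPM (SD, n = 3 each), a log2 fold change of -0.20 ± 0.14 (SE; adjusted p = 0.585, edgeR's quasi-likelihood test), and the 95% interval ran from 69.6% to 109% of the shNC level. This was the lowest value among the antigens with more than 1 CPM. The messenger RNA of its ligand stem cell factor, *KITLG*, was read in the same cells at 9.14, 9.44 and 5.56 CPM in shNC and 11.7, 12.4 and 6.39 CPM in shATGL, with overlapping groups (adjusted p = 0.654, edgeR's quasi-likelihood test).

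*CD38* (ENSG00000004468, chr4:15778275-15853230, plus strand) encodes an ectoenzyme that consumes NAD. Its level was 70.2, 64.9 and 64.2 CPM in shNC and 59.7, 69.3 and 71.8 CPM in shATGL. The lowest and the highest of the 6 values both came from shATGL libraries. Between groups the log2 fold change was 0.01 ± 0.09 (SE; adjusted p = 0.970, edgeR's quasi-likelihood test), with an interval of 87.6% to 116% of the shNC level. Its neighbour and paralogue *BST1* (CD157), an ectoenzyme of the same family, gave 84.5, 86.8 and 95.8 CPM in shNC and 72.7, 70.2 and 84.8 CPM in shATGL. That is a log2 fold change of -0.23 ± 0.09 with an unadjusted p of 0.0365 and an adjusted p of 0.407 (edgeR's quasi-likelihood test). For each 100 counts of *BST1* there were 83.0, 74.8 and 67.0 counts of *CD38* in shNC and 82.1, 98.7 and 84.7 in shATGL, and these ranges overlapped. *PECAM1*, which encodes a surface partner of CD38, lay at 265, 269 and 267 CPM in shNC and 268, 283 and 260 CPM in shATGL.

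*IL3RA* (ENSG00000185291, chrX:1336616-1382689, plus strand) encodes CD123, the subunit of the interleukin-3 receptor that binds the cytokine. It was read at 12.1, 10.8 and 12.1 CPM in shNC and 11.1, 12 and 13.5 CPM in shATGL, with overlapping groups. Its log2 fold change was 0.06 ± 0.12 (SE; adjusted p = 0.850, edgeR's quasi-likelihood test), with an interval of 86.8% to 126% of the shNC level. The gene lies in the pseudoautosomal region and has identical copies on X and Y, so its level depends on how the counting treated reads with more than 1 position, which is not given in the sources used here. *CSF2RB*, the signalling subunit that IL3RA shares with the receptors for GM-CSF and interleukin-5, was read at 33.2, 37.3 and 33.4 CPM in shNC and 32.4, 33.2 and 36.7 CPM in shATGL. Per kilobase the 2 subunits had close levels, 6.99 for *IL3RA* and 7.07 CPM per kilobase for *CSF2RB*. The messenger RNA of the ligand, *IL3*, had 0 counts in all 6 libraries.

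*CD33* (ENSG00000105383, chr19:51225064-51243860, plus strand) encodes an inhibitory receptor that binds sialic acid and is the target of gemtuzumab ozogamicin. Its level was 82.0, 87.2 and 83.4 CPM in shNC and 86.0, 82.6 and 85.0 CPM in shATGL. All shATGL values lay inside the shNC range. The means of 84.2 ± 2.67 CPM and 84.5 ± 1.71 CPM (SD, n = 3 each) gave a log2 fold change of 0.01 ± 0.06 (SE; adjusted p = 0.976, edgeR's quasi-likelihood test). The interval, 91.3% to 110% of the shNC level, was the narrowest of the antigens together with those of *ITGAM* and *CD44*.

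*CLEC12A* (ENSG00000172322, chr12:9951316-9995694, plus strand) encodes a C-type lectin receptor that, like CD33, carries an inhibitory motif in its tail. It was read at 8.53, 7.28 and 7.15 CPM in shNC and 8.54, 8.31 and 7.07 CPM in shATGL, and both the highest and the lowest value came from shATGL. Between the groups the log2 fold change was 0.06 ± 0.13 (SE; adjusted p = 0.878, edgeR's quasi-likelihood test), with an interval of 84.3% to 129%. The gene overlaps *CLEC1B* on the opposite strand, which had 8 to 41 counts a library, and the strand setting of the counting is not given in the sources used here. The phosphatases that such inhibitory tails recruit were both expressed. *PTPN6* (SHP-1) lay at 151, 151 and 158 CPM in shNC and 142, 146 and 149 CPM in shATGL, all below shNC, with a log2 fold change of -0.07 (adjusted p = 0.595, edgeR's quasi-likelihood test). *PTPN11* (SHP-2) lay at 130, 131 and 108 CPM in shNC and 138, 143 and 111 CPM in shATGL, with overlapping groups.

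*CD14* (ENSG00000170458, chr5:140631728-140633701, minus strand) encodes the monocyte co-receptor that hands lipopolysaccharide to TLR4 and its partner MD-2. Its counts were 18, 17 and 9 in shNC and 13, 16 and 0 in shATGL. In CPM these were 0.248, 0.286 and 0.127 in shNC and 0.175, 0.209 and 0 in shATGL. Only shATGL 3 had no count, where a count of 0, taken again to allow 3 counts of the raw total, allows up to 0.0503 CPM. The log2 fold change was -0.74 ± 0.95 (SE; adjusted p = 0.772, edgeR's quasi-likelihood test), and its interval of 12.9% to 278% of the shNC level was the widest of the antigens. Without shATGL 3 the log2 fold change was -0.19, so the size of the value rested on that library. The receptor *TLR4* was present at 20, 18.6 and 18.4 CPM in shNC and 20.9, 21.5 and 14.8 CPM in shATGL. *LY96*, which encodes MD-2, was at or below 0.0392 CPM in each library, so of this receptor complex only *TLR4* was read above 1 CPM.

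*ITGAM* (ENSG00000169896, chr16:31259967-31332892, plus strand) encodes CD11b, the alpha chain of the integrin Mac-1. It was read at 89.5, 88.0 and 85.9 CPM in the shNC libraries, against 89.8, 95.3 and 97.2 CPM in shATGL. All shATGL libraries lay above all shNC libraries, with a gap of less than 1 CPM between shNC 1 and shATGL 1. Ranges that stood apart with shATGL higher were seen for 2 of the 9 antigens, *ITGAM* and *CD44*, against 7.93% of all genes tested, and with shATGL lower for 0 of 9, against 9.38%. The means were 87.8 ± 1.79 CPM and 94.1 ± 3.85 CPM (SD, n = 3 each). The log2 fold change of 0.10 ± 0.06 (SE) had an interval of 97.3% to 118% of the shNC level and an adjusted p of 0.528 (edgeR's quasi-likelihood test). A two-sided exact permutation test gave p = 0.1, the smallest that 3 against 3 libraries allow, so this permutation test cannot reach 0.05 here.

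The partner chains of CD11b were read beside it. *ITGB2*, the beta chain that pairs with CD11a, CD11b and CD11c, was the most abundant partner gene per length at 227 CPM per kilobase, against 24.9 for *ITGAM*. It lay at 722, 726 and 703 CPM in shNC, against 696, 717 and 767 CPM in shATGL, with overlapping groups. For each 100 counts of *ITGB2* there were 12.4, 12.1 and 12.2 counts of *ITGAM* in shNC and 12.9, 13.3 and 12.7 in shATGL. These ranges did not overlap, while those of *KIT* to *ITGAM*, *CD38* to *BST1* and *IL3RA* to *CSF2RB* did. How often such ratios stand apart over other gene pairs was not computed. *ITGAX*, which encodes CD11c, had 14.4, 12.9 and 14.9 CPM in shNC against 23.1, 21.1 and 17.2 CPM in shATGL, all 3 above shNC. Its log2 fold change was 0.54 ± 0.13 (SE) with an unadjusted p of 0.00339 and an adjusted p of 0.392 (edgeR's quasi-likelihood test). *ITGAL*, which encodes CD11a, was read at 101, 103 and 98.8 CPM in shNC and reached 116, 114 and 111 CPM in shATGL. It gave a log2 fold change of 0.17 ± 0.06 (SE) with an unadjusted p of 0.0149 and the same adjusted p. None of these chains passed the adjusted test, and ranges apart with shATGL higher were seen for 7.93% of all genes.

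*CD44* (ENSG00000026508, chr11:35138870-35232402, plus strand) encodes the main receptor for hyaluronan. Its level was 66.1, 65.4 and 67.2 CPM in shNC and 67.9, 67.3 and 71.5 CPM in shATGL. The gap between the groups was 67.2 to 67.3 CPM, far less than the spread within shATGL. The log2 fold change was 0.06 ± 0.06 (SE; adjusted p = 0.718, edgeR's quasi-likelihood test), with an interval of 94.4% to 115%. It overlaps *CD44-AS1* on the opposite strand, with 0 to 20 counts, and *AL133330.1* on the same strand, with 0 to 9 counts a library.

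*HMMR* encodes a second hyaluronan-binding protein, which is also a spindle component of dividing cells. It was read at 69.6, 85.6 and 60.3 CPM in the shNC libraries, against 159, 157 and 61.8 CPM in shATGL. The libraries shATGL 1 and 2 lay far above shNC, and shATGL 3 lay within the shNC range. The log2 fold change over all 6 libraries was 0.81 ± 0.33 (SE) with an unadjusted p of 0.0419 and an adjusted p of 0.414 (edgeR's quasi-likelihood test). It was the 1 gene of 20 tested among 28 receptor partners and ligands with an unadjusted p under 0.05, against 11.7% of all genes. Without shATGL 3 the value was 1.13 with an adjusted p of 0.00206.

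*CD47* (ENSG00000196776, chr3:108043094-108091862, minus strand) encodes the ligand of SIRPA. Its messenger RNA lay at 37.6, 34.8 and 34.1 CPM in shNC and 29.9, 36.1 and 33.4 CPM in shATGL. The libraries shATGL 1 and 3 lay below shNC and shATGL 2 lay inside its range, which is the same placing as for *KIT*. Its log2 fold change was -0.10 ± 0.09 (SE; adjusted p = 0.676, edgeR's quasi-likelihood test), with an interval of 80.5% to 108%. *SIRPA*, which the line itself expressed, lay at 95.2, 94.5 and 96.7 CPM in shNC and 89.5, 92.4 and 105 CPM in shATGL. *QPCTL*, the enzyme that modifies the end of CD47 needed for SIRPA binding, lay at 24.3, 21.3 and 20 CPM in shNC and 20.4, 20.2 and 20.3 CPM in shATGL. Both overlapped between groups.

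**Figure D3:**
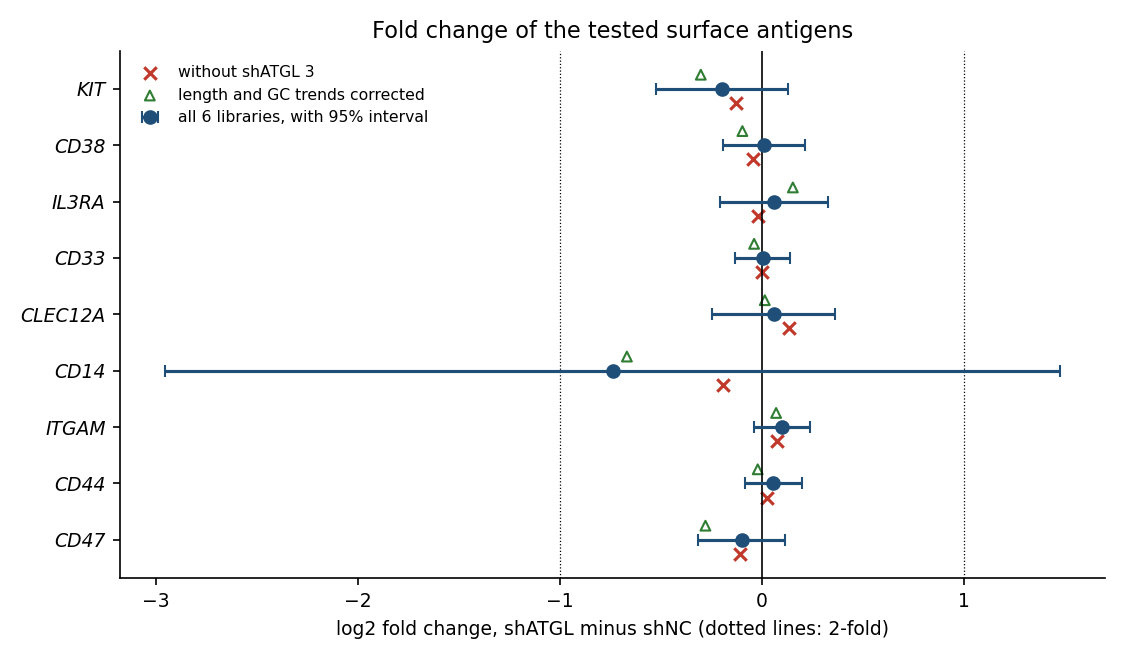
Log2 fold change of shATGL against shNC (horizontal axis) for the 9 tested antigens, with 95% intervals as bars from edgeR's quasi-likelihood test, crosses for the value without shATGL 3 and triangles for the value after correction of transcript length and GC trends. All the intervals drawn, which are those without the correction, include 0, and only that of *CD14* leaves the dotted lines at 2-fold.

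Fold changes over all genes rose with transcript length (Spearman rho 0.218 over 18566 genes, which are not independent replicates) and fell with GC content (rho -0.156). The trends and their correction used the longest annotated transcript, which for *CD33* and *CD47* is far longer than the principal one. After the correction rho was -0.0785 for length and 0.0129 for GC content. With both trends corrected the antigens stayed without a call, and *CD38*, *CD33* and *CD44* changed sign, to -0.10, -0.04 and -0.02. *KIT* then had -0.30 and *CD47* -0.28, with adjusted p-values of 0.389 and 0.480 (edgeR's quasi-likelihood test). For *KIT* the corrected 95% interval on the log2 scale ran from -0.57 to -0.03 and left out 0, with an unadjusted p of 0.032 in that fit. In the same fit 2352 of the 19149 genes tested had an unadjusted p under 0.05 (edgeR's quasi-likelihood test). *ITGAM* remained above 0 at 0.07. The sign of these small values thus depended on the correction for 3 antigens. A correction with the principal transcript length was not run.

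The balance of a progenitor against a myeloid antigen was described within each library. For each 100 counts of *ITGAM* there were 17.8, 16.3 and 15 counts of *KIT* in shNC and 12.8, 15.5 and 11.7 in shATGL. Here shATGL 2 lay above shNC 3, so the ranges overlapped by that pair.

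Likeness of pattern was computed between the 8 antigens with more than 1 CPM, over the 6 libraries and 28 pairs. *KIT* and *CD47* were most alike, with Pearson's r of 0.867 (permutation p = 0.0125 over 720 pairings, adjusted p = 0.350) and Spearman's rho of 0.943 (permutation p = 0.0167, adjusted p = 0.467). Without the 2 libraries farthest from the median of *KIT*, shATGL 3 and shATGL 1, r was 0.941. *KIT* and *CD44* were the most opposed, with r of -0.753 (permutation p = 0.05, adjusted p = 0.454) and rho of -0.714 (permutation p = 0.136, adjusted p = 0.783). Without the same libraries that r was -0.356. Few libraries then remain, and those left out hold the extreme values of *KIT*. This value therefore cannot settle whether the relation rested on them. No pair passed the adjustment, and the points share their libraries and normalization.

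A further 54 surface antigens used in AML typing were read beside the 10, of which 44 were tested. Of the 44, 21 had log2 fold changes above 0 and 23 below, with a median of -0.02, and 0 were called. Of these, 7 had an unadjusted p under 0.05, a count to be read against 11.7% of all genes, and none had an adjusted p under 0.392 (edgeR's quasi-likelihood test). Above 0 these were *ITGAX*, *ITGAL*, *CD84* and *SIGLEC7*. *CD84*, a receptor of the SLAM family, lay at 34.3, 38.6 and 33 CPM in shNC and 39.6, 40.1 and 41.6 CPM in shATGL. *SIGLEC7*, an inhibitory receptor of the same family as CD33, lay at 0.304, 0.168 and 0.268 CPM in shNC and 0.378, 0.731 and 0.566 CPM in shATGL, all under 1 CPM. Below 0 were *CXCR4*, *BST1* and *FCGR2A*.

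*CXCR4*, the chemokine receptor that holds blasts in the marrow, lay at 119, 118 and 135 CPM in shNC and 90.6, 93.0 and 109 CPM in shATGL, with no overlap. Its log2 fold change was -0.35 ± 0.09 (SE) with an unadjusted p of 0.00591 and an adjusted p of 0.392 (edgeR's quasi-likelihood test). *FCGR2A*, an Fc receptor, lay at 62.7, 62.0 and 64.9 CPM in shNC and 55.5, 58.6 and 57.5 CPM in shATGL. Per length the highest of the other antigens were *CD63* at 177, *CD70* at 82.6 and *CD4* at 79.4 CPM per kilobase, each above *CD33* at 58.4.

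The library shATGL 3 changed the count of calls over all genes more than any other, from 1 to 319 when it was left out. Without it, 14% of the genes tested had an adjusted p under 0.05, and 0 of the 9 antigens had (edgeR's quasi-likelihood test). Of 21 partners tested in that fit 2 passed, *HMMR* and *CD36*, both higher in shATGL. Of 45 other antigens tested 6 passed, *PTPRC*, *ITGAX*, *TFRC* and *ITGAL* as higher and *CXCR4* and *BST1* as lower. Both counts are to be read against the 14% of all genes. *PTPRC*, *CD36* and *TFRC* were named after their values were seen. With all 6 libraries and the length and GC correction, *CD36* turned from 0.25 to -0.04 and *TFRC* moved from 0.144 to 0.015 on the log2 scale. The other genes that passed kept their sign and became smaller in size. *HMMR* moved from 0.809 to 0.634, *PTPRC* from 0.514 to 0.304, *ITGAX* from 0.542 to 0.504 and *ITGAL* from 0.174 to 0.126. *CXCR4* moved from -0.348 to -0.305 and *BST1* from -0.231 to -0.164. *PTPRC* encodes CD45, a phosphatase of white blood cells. It lay at 106, 122 and 86.7 CPM in shNC and 175, 186 and 88.2 CPM in shATGL. Here shATGL 3 again lay with shNC, and replicate 3 was the lowest in both groups. *CD33*, in contrast, had 86.0, 82.6 and 85.0 CPM in shATGL 1, 2 and 3, without a library apart.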

How the data were processed

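Messenger RNA of MV4-11 cells was sequenced in 6 libraries, 3 shNC and 3 shATGL, grouped by their titles and treatment labels. Per the labels, RNA was extracted with TRIzol in one field and with a miRNeasy kit in another, reverse-transcribed, amplified and made into libraries with a transposase kit. The authors removed adapters and low-quality bases with FASTP and deposited raw read counts per gene. The aligner, counting tool and strand setting are not given in the sources used here. The submitters' processing notes name the mouse build mm10, whereas the table holds human Ensembl identifiers. Of 61806 genes, 61757 were matched to a symbol. Coordinates and lengths come from GENCODE 29 and promoter sequences from RefSeq (GRCh38.p14), where all 10 antigens matched.

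Genes with too few counts were dropped with filterByExpr (minimum count 10, minimum total 15), TMM factors scaled the counts, and shATGL was tested against shNC over 19149 genes with the quasi-likelihood test of edgeR 4.0.16 (R 4.3.3), with Benjamini-Hochberg adjustment. DESeq2 1.42.0, limma 3.58.1 (voom with sample weights), other scalings, other filters, a replicate block, a correction of length and GC content by splines with 4 degrees of freedom, and omission of each library were alternatives. The edgeR fits without and with the block and with the length and GC correction, DESeq2 and voom were tested on simulated data, and the other alternatives were not. The length and GC correction used the longest transcript of each gene. No libraries were duplicates. Intervals on single counts cover counting error only. CPM values use library totals scaled by TMM, and the low counts of *CD34* and *CD14* limit their precision. The antigens and the lists of partners, other antigens and cell type markers were chosen with earlier results of these data known. Named genes were the 10 antigens, their direct partners, the 3 genes of each list with the highest level per length and those with an unadjusted p under 0.05. *PNPLA2* was named as the targeted gene, and *EPOR* and *MS4A1*, like any other gene outside the rule, were named after their values were seen.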

Additional observations from a re-analysis of the deposited data

How the results depend on the processing

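The 9 tested antigens gave 134 values under the alternatives, of which 117 had the same sign and the same side of the threshold and 17 changed sign, with a smallest adjusted p of 0.309. No antigen was called under any of them. An unadjusted p under 0.05 (edgeR's quasi-likelihood test) was reached by *KIT* with the length and GC correction (0.032) and without shATGL 2 (0.044). *CD47* reached it with the correction and the block (0.0464). Over all genes tested in those fits, in the same order, it was reached by 2352 of 19149, 1021 of 19742 and 3009 of 19149. Signs changed for *CD38* (upper-quartile scaling -0.0013, voom -0.0624, length and GC correction -0.0964, the same with a replicate block -0.1103), for *IL3RA* (voom -0.0104), for *CD33* (upper-quartile scaling -0.0078, length and GC correction -0.0381, with the block -0.038) and for *CD44* (-0.0202 with the correction and -0.0214 with the block added). Leaving out each library in turn gave ranges of -0.0447 to 0.0861 for *CD38*, -0.0201 to 0.125 for *IL3RA*, -0.0144 to 0.0539 for *CD33*, -0.332 to -0.118 for *KIT* (lowest without shATGL 2), -0.166 to -0.033 for *CD47* (nearest to 0 without shATGL 1), 0.007 to 0.144 for *CLEC12A* (lowest without shATGL 1, highest without shNC 1) and -0.024 to 0.0327 for *PNPLA2*. Among the partners 1 gene was called by voom and 1 without shATGL 3, *HMMR*, and the range over omitted libraries was 0 to 1. Over all genes the main fit called 1, DESeq2 24, voom 266 and upper-quartile scaling 3, and leaving out libraries gave 0 to 319, the latter without shATGL 3. Libraries with the same number deviated from their group means with correlations of 0.0599, 0.233 and 0.343. For libraries with different numbers the correlations ran from -0.291 to 0.192, and shNC 3 with shATGL 3 had the highest value. The labels give replicate numbers but name no shared batch, so the main fit took no pairs and the block was an alternative. The replicate block called 0 genes of any kind, with 3317 at an unadjusted p under 0.05 against 2243 in the main fit. For *CD14* the block moved the value from -0.74 to -1.15. *CD14* could not be fitted with a minimum of 10 counts in every library. The longest transcript as length, an alternative chosen after seeing the data, moved *CD33*, *ITGAM* and *CD47* to 17.8, 19.2 and 5.05 CPM per kilobase. The cause of these shifts was not tested.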
